A study of Mus musculus with 12 samples.

Results

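The Polycomb repressive complexes silence genes by marking and compacting their chromatin. Polycomb repressive complex 2 (PRC2) methylates histone H3 at lysine 27 through Ezh1 or Ezh2, which act with the core proteins Eed and Suz12 and with accessory proteins that guide the complex to its sites. Polycomb repressive complex 1 (PRC1) attaches ubiquitin to histone H2A through Ring1 or Rnf2, and in its canonical form reads the H3 mark through a Cbx protein. In mouse skin, PRC2 keeps basal keratinocytes from expressing Merkel cell genes and the Cdkn2a and Cdkn2b cell cycle inhibitors, and Ezh2 is known to be higher in dividing basal cells than in differentiated ones.

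The 10 genes described here are Ezh1, Ezh2, Eed, Suz12, Jarid2, Mtf2, Phf19, Rnf2, Ring1 and Cbx2, chosen by name, and all 10 were found among the 23420 genes of the count table. They were read in GFP-HI and GFP-LO basal cells of the hard palate of 6 FVB mice, each of which gave 1 library of either fraction. Every mouse was K5-tTA (+/-); tetO-H2B-GFP (+/-), so the keratin 5 promoter limits the H2B-GFP label to keratinocytes of the basal lineage. Label production was stopped with doxycycline for 14 days, and both fractions were sorted as CD49f-positive. The labels name GFP-HI cells as infrequently dividing and GFP-LO cells as frequently dividing, and the comparison asks which transcripts differ between them. Mouse B7F was 71 days old and all others 49 days, so age and this mouse cannot be told apart.

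Libraries held 4030757 to 6419834 counts besides the pre-ribosomal RNA gene Rn45s, which took a further 31.5% to 59.8% of all counts. Genes detected per library ranged from 12312 to 19023, and were lowest in GFP-HI of B1M (12312) and of B3M (12810). Levels are given as CPM, counts scaled to the normalised library size. A count of 0 allows up to 3 counts, or 0.258 to 0.433 CPM depending on the library, a limit that covers counting error only. Markers of basal keratinocytes summed to 13812 to 22527 CPM in GFP-HI, against 16402 to 23401 CPM in GFP-LO, and none of the 6 was called. All 6 had negative log2 fold changes, and their sum was higher in GFP-HI in 1 of 6 mice. Suprabasal markers summed to 1193 to 3594 CPM in GFP-HI, against 1239 to 2528 CPM in GFP-LO, with no call among 6 tested. Of these, 4 were positive and 2 negative, and the sum was higher in GFP-HI in 2 of 6 mice. Fibroblast markers summed to 255 to 476 CPM in GFP-HI, against 359 to 619 CPM in GFP-LO, lower in GFP-HI in 6 of 6 mice. Decorin (Dcn) made up nearly all of that sum and was the 1 of 4 tested that was called (lower, log2 −0.49, edgeR adjusted p = 0.0031), whereas Col1a1, Col1a2 and Vim had positive log2 fold changes that were not called (1.55, 1.11 and 1.08). Col3a1, Lum and Pdgfra had at most 9, 7 and 3 counts in a library. Immune, endothelial and melanocyte markers reached at most 31.8, 5.41 and 6.41 CPM in any library. Their sums were higher in GFP-HI in 0, 5 and 2 of 6 mice. Merkel cell markers summed to 56.3 to 87.8 CPM in GFP-HI, against 54.8 to 77.4 CPM in GFP-LO. That sum was higher in GFP-HI in 5 of 6 mice, and 3 of the 4 tested were positive with 0 called. Since each library is a pool of cells, fewer cells expressing a gene and less RNA per cell cannot be told apart.

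E2F transcription factors are known to drive EZH2 and EED in dividing human cells, so the promoters were searched for the E2F element. RefSeq (GRCm38.p6) gave windows of 250 bases before to 50 bases after the transcript start for 9 of the 10 genes, 11 windows in all. The element was taken as TTTCCCGC, TTTCGCGC, TTTGCCGC or TTTGGCGC on either strand. It was found in 3 of these 11 windows, 1 each for Ezh2, Suz12 and Phf19 but none for Eed, and in 2.26% of all 32851 promoter windows. None of the windows of Mki67, Top2a, Mcm2 or Pcna, genes of dividing cells used below, held it. The stretches around the matches are shown in the direction of transcription, with the element or its reverse complement in capitals. They lie at chr6:47594994-47595053 (minus strand, Ezh2), chr11:79992861-79992920 (plus strand, Suz12) and chr2:34914151-34914210 (minus strand, Phf19). The element begins 3 bases after the start of Ezh2, 219 bases before that of Suz12 and 208 bases before that of Phf19.
Ezh2: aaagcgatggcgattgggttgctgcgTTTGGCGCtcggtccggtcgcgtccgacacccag
Suz12: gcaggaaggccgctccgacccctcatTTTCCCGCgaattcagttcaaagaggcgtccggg
Phf19: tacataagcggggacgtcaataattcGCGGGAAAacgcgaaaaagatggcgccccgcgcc

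No member was called different between the fractions. In edgeR's quasi-likelihood test, paired by mouse and adjusted over all 11719 genes that passed the filter on low counts, 0 of 10 members were higher and 0 were lower in GFP-HI at an adjusted p under 0.05, where 0.469% of all genes tested were called higher and 0.0597% lower. DESeq2 also called 0. Only Jarid2 had an unadjusted p under 0.05, 1 member of 10 against 7.24% of all genes. Of the log2 fold changes, 5 were positive and 5 negative, with a median of 0.00 (all genes, median −0.02). All 10 passed the filter on low counts, and the GFP-HI and GFP-LO values overlapped for every member. The share of all genes tested whose values overlap was not counted, so whether this overlap is particular to the members cannot be said.

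**Figure D1:**
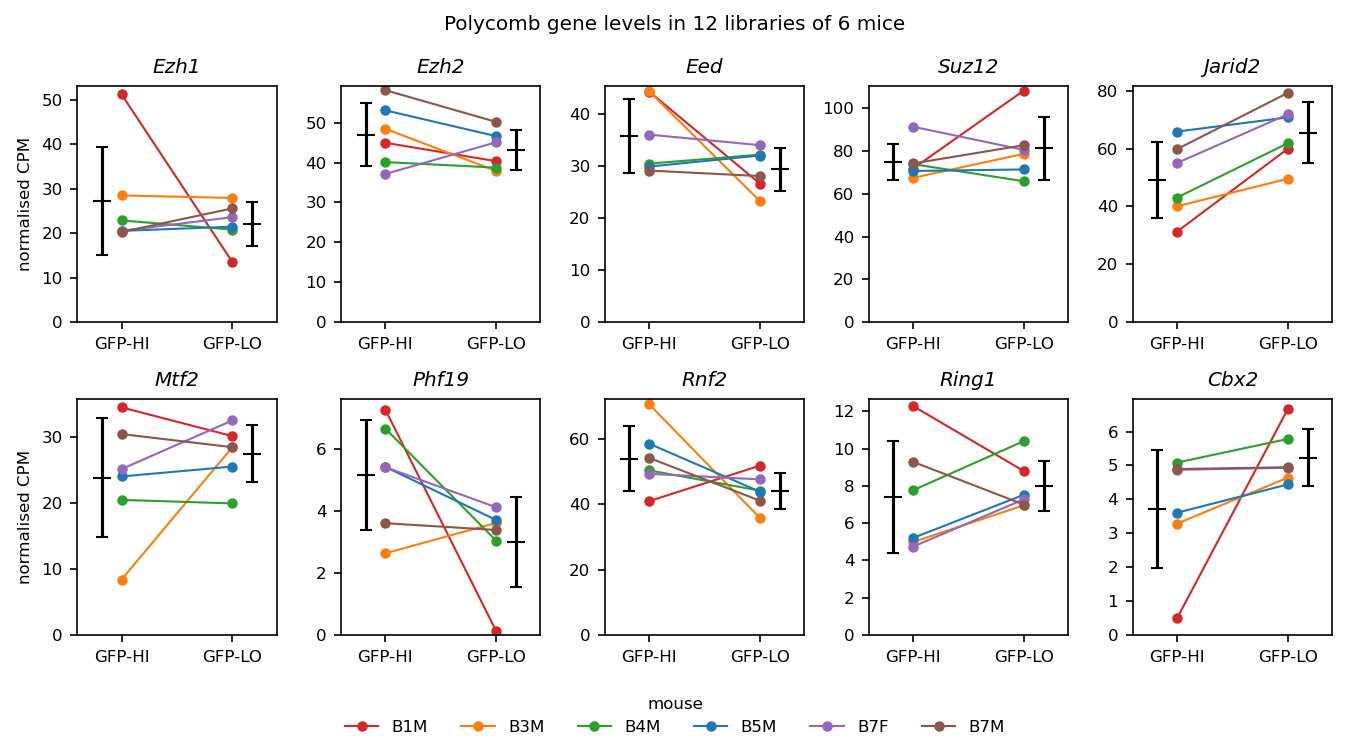
Normalised CPM of the 10 Polycomb genes in GFP-HI (left) and GFP-LO (right), 1 line per mouse, with the mean and SD of the 6 libraries in black at the side. Jarid2 slopes the same way in 6 of 6 mice, while the steepest lines of Ezh1, Phf19 and Cbx2 belong to B1M and that of Mtf2 to B3M.

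Jarid2 had the smallest p of the members and was lower in GFP-HI in every mouse, as was Cbx2. It encodes a DNA-binding accessory subunit that helps bring PRC2 to its sites, and in mouse epidermis it is known to influence when stem cells differentiate. The gene lies on the plus strand of chromosome 13 (44730774 to 44921643, mm10). The lowest, median and highest levels were 31.3, 49.1 and 65.9 CPM in GFP-HI and 49.6, 66.3 and 79.2 CPM in GFP-LO. The fractions overlapped across mice, but within each of the 6 mice the GFP-HI library was the lower, by 0.10 in B5M to 0.93 in B1M on the log2 scale. The log2 fold change was −0.44 ± 0.12 SE (95% interval −0.69 to −0.19, or 0.738-fold), with an edgeR p of 0.0023 and an adjusted p of 0.20, rank 134 among the genes tested. It was −0.34 without B1M (adjusted p = 0.23), and over all alternatives the adjusted p lay between 0.043, with low counts kept in, and 1.00, with mice not paired. The fibroblast marker Dcn was also lower in GFP-HI (log2 −0.49), while Col1a1, Col1a2 and Vim had positive values of 1.55, 1.11 and 1.08. Which cells the Dcn RNA came from, and whether cell content has a part in the Jarid2 values, was not tested.

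The catalytic subunit Ezh2 (chromosome 6, 47530274 to 47595030, minus strand) was at similar levels in both fractions. Its lowest, median and highest levels were 37.1, 46.7 and 58.1 CPM in GFP-HI and 37.9, 42.7 and 50.2 CPM in GFP-LO. GFP-HI was the higher in 5 of 6 mice, and B7F was the exception. Its log2 fold change was 0.12 ± 0.12 SE with an interval of −0.14 to 0.37, so that changes beyond 0.910-fold or 1.29-fold lay outside it (edgeR adjusted p = 0.86). It was 0.11 without B1M, 0.19 without B7F, 0.071 without B3M and 0.046 without B1M and B3M.

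Genes of dividing cells gave larger values in the same libraries. All 4 listed had positive log2 fold changes, toward GFP-HI, the fraction that the labels name as infrequently dividing. The labels rest on H2B-GFP kept over 14 days of doxycycline, which is not a measure of RNA. This direction thus cannot be set directly against them, and the reason for it was not tested. Top2a, a topoisomerase needed for mitosis, was the 1 of 4 such genes that was called, with a log2 fold change of 0.48 (interval 0.30 to 0.66, edgeR adjusted p = 0.019) and a higher value in GFP-HI in 6 of 6 mice. Mki67 had 0.37 (0.19 to 0.56, adjusted p = 0.097), the replicative helicase gene Mcm2 0.36 (−0.01 to 0.74, adjusted p = 0.70) and the replication clamp gene Pcna 0.26 (0.0039 to 0.51, adjusted p = 0.68). In B7F, where Ezh2 was lower in GFP-HI by 0.28, Mki67 and Top2a were higher by 0.56 and 0.46 on the log2 scale. Whether Ezh2 differs from these genes in its change was not tested.

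Ezh1, the alternative catalytic subunit, known for its role in resting and differentiated cells, depended on a single mouse. The gene lies on chromosome 11 (101191115 to 101226450, minus strand). Its lowest, median and highest levels were 20.3, 21.7 and 51.2 CPM in GFP-HI and 13.6, 22.5 and 27.9 CPM in GFP-LO. Both the highest and the lowest of the 12 values came from B1M, with 417 counts in its GFP-HI and 108 in its GFP-LO library, and the other 5 mice differed by −0.33 to 0.14 on the log2 scale. Over all mice the log2 fold change was 0.22 ± 0.25 SE (−0.32 to 0.77, edgeR adjusted p = 0.87), and −0.085 without B1M (adjusted p = 0.92).

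The balance of both enzymes was compared as a ratio per exonic length. Ezh2 exceeded Ezh1 in all 12 libraries, by 1.38 to 4.51-fold in GFP-HI and 2.13 to 4.67-fold in GFP-LO. The mean log2 ratio was 1.51 ± 0.601 in GFP-HI, against 1.64 ± 0.366 in GFP-LO (SD, n = 6 each). Within mice it differed by −0.13 ± 0.833 (SD, n = 6), with a positive difference in 3 of 6 mice and an exact two-sided sign-flip permutation p of 0.906 (smallest possible 0.031). B1M gave −1.76, and without it the mean difference was 0.19 ± 0.273 (SD, n = 5; exact permutation p = 0.25, smallest possible 0.0625).

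Eed, which binds the H3 mark and stimulates the enzyme, and Suz12, the scaffold of the complex, went in opposite directions and did not pass. Eed (chromosome 7, 89954654 to 89980976, minus strand) had lowest, median and highest levels of 29.2, 33.3 and 44.4 CPM in GFP-HI and 23.3, 30.1 and 34.0 CPM in GFP-LO. Its GFP-HI values in B1M and B3M, 44.3 and 44.4 CPM, lay above all other libraries. Eed had a log2 fold change of 0.27 ± 0.16 SE (−0.08 to 0.63, edgeR adjusted p = 0.78), 0.14 without B3M, and −0.011 with B1M and B3M left out.

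Suz12 (chromosome 11, 79993106 to 80034123, plus strand) had 67.5, 72.8 and 91.4 CPM in GFP-HI and 65.9, 79.6 and 108 CPM in GFP-LO as lowest, median and highest levels. The highest GFP-LO value belonged to B1M. Suz12 had a log2 fold change of −0.11 ± 0.11 SE (−0.34 to 0.13, edgeR adjusted p = 0.86), with the lower value in GFP-HI in 4 of 6 mice, and of −0.0079 without B1M and 0.041 with B1M and B3M left out.

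**Figure D2:**
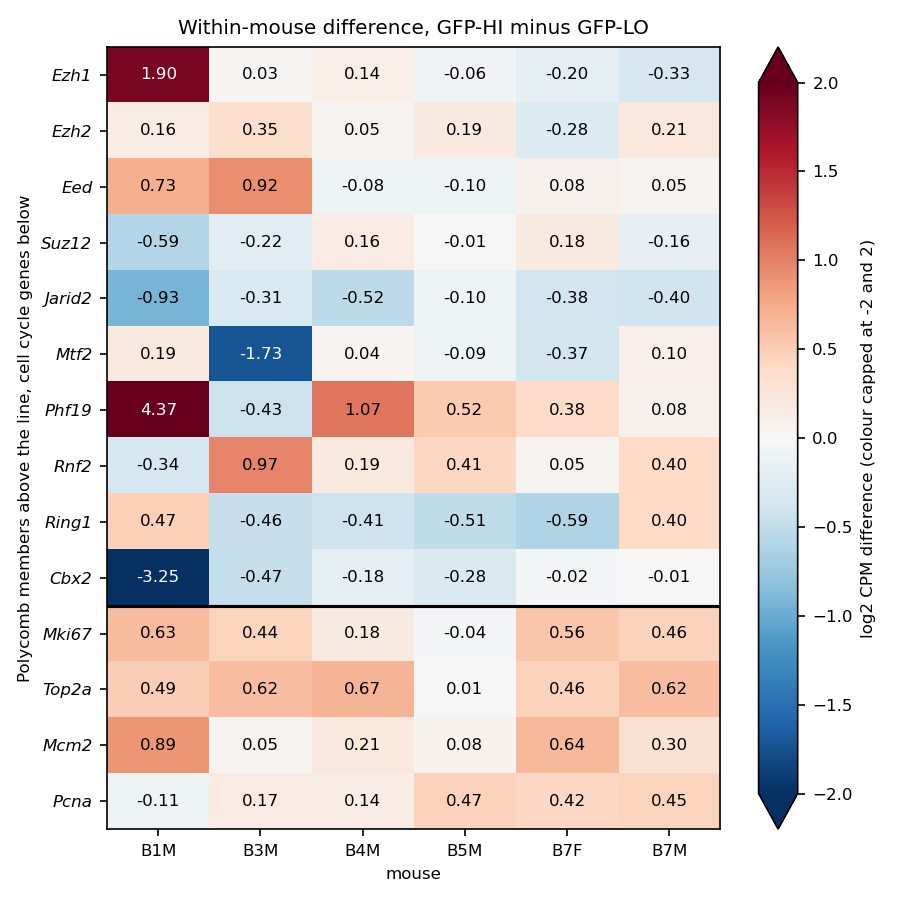
Difference in log2 CPM between the GFP-HI and the GFP-LO library of each mouse (columns) for the 10 Polycomb genes and, under the line, 4 genes of dividing cells. Differences beyond 1 in either direction occur in B1M for Ezh1, Phf19 and Cbx2, in B3M for Mtf2 and in B4M for Phf19, and Jarid2 is negative in all 6 columns.

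The Polycomb-like accessory proteins Mtf2 and Phf19 help PRC2 to bind unmethylated CpG-rich DNA. Mtf2 (chromosome 5, 108065674 to 108109219, plus strand) had lowest, median and highest levels of 8.40, 24.6 and 34.5 CPM in GFP-HI and 19.9, 28.5 and 32.5 CPM in GFP-LO. The value of 8.40 CPM came from B3M, whose GFP-HI library had 64 counts, and 3 of 6 mice were higher and 3 lower in GFP-HI. Its log2 fold change was −0.29 ± 0.23 SE (−0.77 to 0.20, edgeR adjusted p = 0.82), and −0.021 without B3M.

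Phf19 (chromosome 2, 34893755 to 34913976, minus strand) was the least abundant member per exonic length, with 20 to 59 counts in GFP-HI libraries and 1 to 42 in GFP-LO libraries. Lowest, median and highest levels were 2.63, 5.40 and 7.25 CPM in GFP-HI and 0.126, 3.49 and 4.11 CPM in GFP-LO, with the higher value in GFP-HI in 5 of 6 mice. In B1M, 59 counts in GFP-HI stood against 1 in GFP-LO, a ratio of 57.7 with a counting interval of 9.96 to 2316. Over all mice it had a log2 fold change of 0.85 ± 0.61 SE (−0.47 to 2.18, edgeR adjusted p = 0.80), and 0.35 without B1M (adjusted p = 0.87).

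Of the PRC1 enzymes, Rnf2 (RING1B; chromosome 1, 151469406 to 151500823, minus strand) had a positive difference that did not pass. Its lowest, median and highest levels were 41.0, 52.3 and 70.6 CPM in GFP-HI and 35.8, 44.1 and 51.9 CPM in GFP-LO. GFP-HI was the higher in 5 of 6 mice, with B1M the exception. Rnf2 had a log2 fold change of 0.28 ± 0.15 SE (−0.04 to 0.61, edgeR adjusted p = 0.74). Without B1M it was 0.41 (interval 0.14 to 0.69, adjusted p = 0.27), and without B3M 0.15 (adjusted p = 0.84).

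Ring1 (RING1A; chromosome 17, 34020792 to 34024680, minus strand), the other enzyme of this pair, had 4.74, 6.49 and 12.3 CPM in GFP-HI and 6.96, 7.40 and 10.4 CPM in GFP-LO as lowest, median and highest levels. It was lower in GFP-HI in 4 of 6 mice, with B1M and B7M the exceptions. Ring1 had a log2 fold change of −0.19 ± 0.28 SE (−0.79 to 0.42, edgeR adjusted p = 0.91). It was −0.32 without B1M, −0.31 without B7M, −0.12 without B3M or B5M and −0.10 without B7F.

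Cbx2, a chromodomain protein that compacts chromatin in canonical PRC1 (chromosome 11, 119023029 to 119031270, plus strand), was lower in GFP-HI in 6 of 6 mice, but by only 0.01 and 0.02 in B7M and B7F on the log2 scale. Lowest, median and highest levels were 0.491, 4.24 and 5.08 CPM in GFP-HI and 4.44, 4.94 and 6.66 CPM in GFP-LO. B1M had both the lowest GFP-HI value, from 4 counts, and the highest GFP-LO value, from 53 counts. Cbx2 had a log2 fold change of −0.63 ± 0.50 SE (−1.70 to 0.44, edgeR adjusted p = 0.82), and −0.20 without B1M (adjusted p = 0.91).

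**Figure D3:**
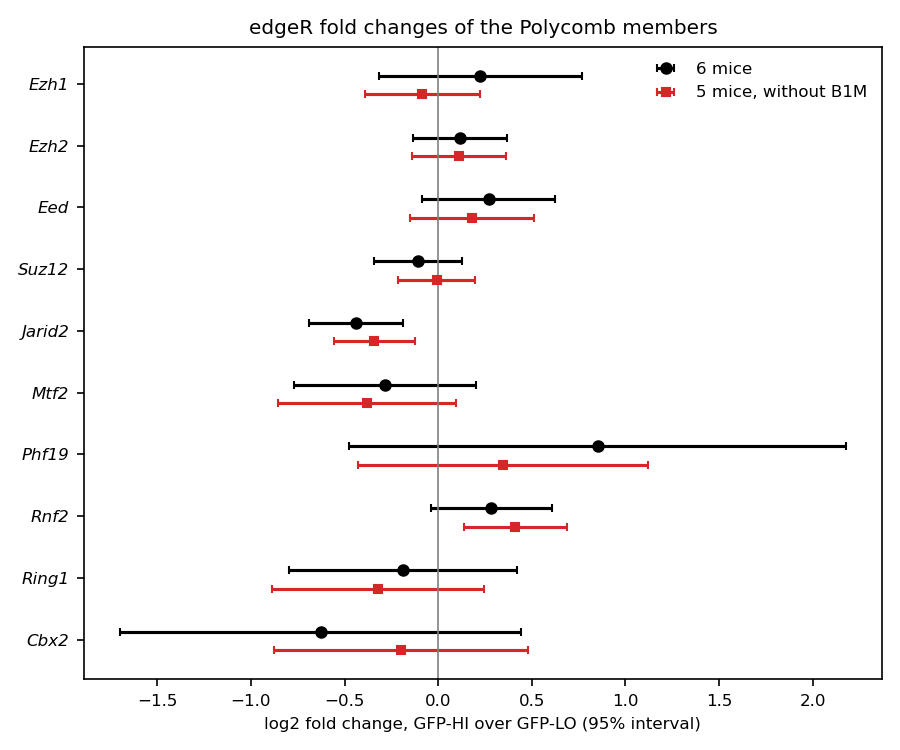
edgeR log2 fold change of each Polycomb gene, GFP-HI over GFP-LO, with its 95% interval, from all 6 mice (black circles) and without B1M (red squares). The estimate of Phf19 moved to 0.35 and that of Cbx2 to −0.20 without B1M, and the intervals of Jarid2 lie under 0 in both fits.

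The wide spread in B1M and B3M was shared by genes at large. The median absolute difference between the fractions over all 11719 genes was 0.58 in B1M and 0.42 in B3M on the log2 scale, and 0.21 to 0.29 in the other 4 mice. The same medians over the 10 Polycomb genes were 0.66 in B1M, 0.44 in B3M and 0.14 to 0.24 in the others. The biological coefficient of variation that edgeR estimated ran from 14.3% for Suz12, 14.7% for Jarid2 and 14.8% for Ezh2 to 52.3% for Cbx2 and 62.8% for Phf19, against a median of 25.2% over all genes. The interval of the fold change accordingly ran from 0.788 to 1.09 for Suz12 but from 0.308 to 1.36 for Cbx2 and from 0.720 to 4.52 for Phf19.

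Levels were compared between genes as CPM per kilobase of exon. Suz12, Ezh2, Rnf2 and Eed formed a group with means of 17.9, 16.9, 16.2 and 15.8 over the 12 libraries, and each exceeded the next in only 7, 7 and 6 of 12 libraries. Eed lay above Jarid2, at 9.32, in 12 of 12 libraries. Jarid2, Ezh1 (5.90), Mtf2 (4.91) and Ring1 (3.78) followed, each above the next in 10, 9 and 10 of 12 libraries. Ring1 lay above Cbx2 (1.19) in 12 of 12, whereas Cbx2 and Phf19 (1.09) were not separated, with Cbx2 higher in 8 of 12. Within each pair of related enzymes, the level per kilobase in GFP-HI and in GFP-LO was 17.6 and 16.2 for Ezh2 against 6.51 and 5.28 for Ezh1, and 17.8 and 14.6 for Rnf2 against 3.63 and 3.93 for Ring1. Among all genes tested, Suz12 stood at the 80.6th and Phf19 at the 9.13th percentile of mean level per kilobase.

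**Figure D4:**
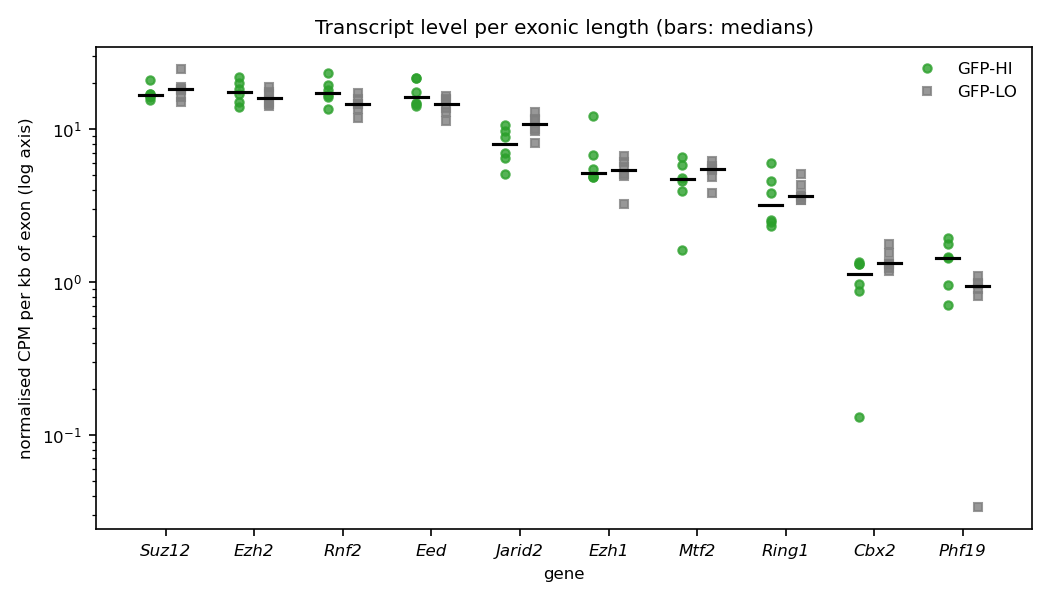
Normalised CPM per kilobase of exon on a log axis for each Polycomb gene, ordered by its mean, in the 6 GFP-HI libraries (green circles, left) and the 6 GFP-LO libraries (grey squares, right), with medians as bars. Suz12, Ezh2, Rnf2 and Eed share 1 range, and the lowest points of Cbx2 and Phf19 are the GFP-HI and the GFP-LO library of B1M.

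The other genes of the system gave no call either. Of 46 further subunits, partners and antagonists, 44 were tested, with 0 called higher and 0 called lower in edgeR and 0 called in DESeq2. At an unadjusted p under 0.05, 0 were higher and 3 lower (Sfmbt2, Pcgf2 and Foxk2), where 504 and 344 of all 11719 genes, 7.24% together, were higher and lower. A positive log2 fold change was found for 22 and a negative one for 22, with a median of 0.00. Over all 11719 genes tested, 5501 were positive and 6218 negative.

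Among the other PRC2 subunits, 7 of 8 were tested and 5 were positive (median 0.11). Lcorl, Phf1 and the histone-binding Rbbp7 had the smallest p, with log2 fold changes of 0.33, 0.48 and 0.12 (edgeR adjusted p = 0.77, 0.80 and 0.86). The inhibitor gene Ezhip had 1 count in all libraries together.

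Canonical PRC1 had 11 tested genes, 6 of them positive (median 0.04). Pcgf2, a RING finger partner of Ring1 and Rnf2, averaged 10.7 ± 3.18 CPM in GFP-HI libraries, against 16.3 ± 4.50 CPM in GFP-LO libraries (SD, n = 6 each; log2 −0.62, interval −1.22 to −0.02, edgeR adjusted p = 0.68). It was lower in GFP-HI in 5 of 6 mice. The Polyhomeotic gene Phc3 had 0.15, positive in 6 of 6 mice, and the chromodomain gene Cbx6 had 0.21 (adjusted p = 0.79 and 0.84).

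All 13 genes of variant PRC1, which lacks a Cbx reader, were tested, and 7 were positive (median 0.03). The corepressor Bcorl1 had a log2 fold change of 0.55, Mga −0.16 and the CpG island-binding Kdm2b −0.35 (edgeR adjusted p = 0.70, 0.82 and 0.82).

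The deubiquitinase module PR-DUB, which removes ubiquitin from H2A, had 6 negative values among 7 tested genes (median −0.12). None of the 7 was called, and 6218 of all 11719 genes tested were negative. Foxk2, a forkhead protein that recruits it, averaged 53.2 ± 7.19 CPM in GFP-HI libraries, against 62.9 ± 10.2 CPM in GFP-LO libraries (SD, n = 6 each; log2 −0.23, interval −0.47 to −0.0031, edgeR adjusted p = 0.68). Asxl2 and Mbd6 had −0.12 and −0.21 (adjusted p = 0.84 and 0.85).

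In the list labelled DNA-binding, which holds Yy1, Sfmbt1 and Sfmbt2, the MBT-domain gene Sfmbt2 had the largest difference of all the Polycomb genes tested. Its lowest and highest levels were 1.70 and 6.36 CPM in GFP-HI and 6.22 and 8.67 CPM in GFP-LO, with the lower value in GFP-HI in 6 of 6 mice. The fractions overlapped only through the GFP-HI value of B4M and the GFP-LO value of B7F. Its log2 fold change was −1.13 (interval −1.98 to −0.28, edgeR adjusted p = 0.50). Sfmbt1 had 0.20 and Yy1 0.024 (adjusted p = 0.85 and 0.98).

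The H3K27 demethylase genes Kdm6b and Kdm6a, which oppose PRC2, and the related gene Uty lay close to 0. Log2 fold changes were −0.09 for Kdm6b, −0.022 for Kdm6a and 0.021 for Uty (edgeR adjusted p = 0.90, 0.98 and 0.99). Their intervals ran from −0.35 to 0.17, −0.27 to 0.23 and −0.43 to 0.47. Uty had lowest, median and highest levels of 0, 43.2 and 67.7 CPM in GFP-HI and 0, 39.5 and 45.5 CPM in GFP-LO. It was higher in GFP-HI in 3 mice and lower in 2.

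**Figure D5:**
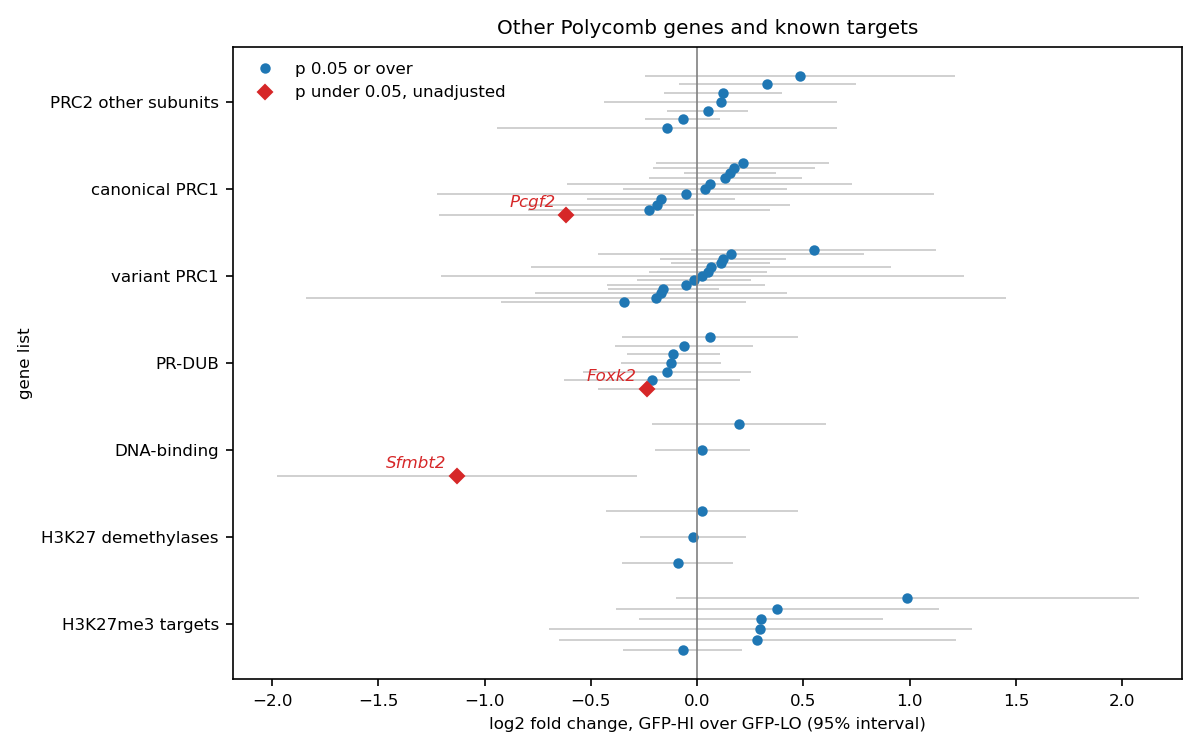
edgeR log2 fold change, GFP-HI over GFP-LO, with its 95% interval in grey. Shown are 44 other Polycomb genes in 6 lists and 6 genes known to be repressed by PRC2 in skin epidermis. Sfmbt2 (−1.13), Pcgf2 (−0.62) and Foxk2 (−0.23), in red, had an unadjusted p under 0.05, and none passed after adjustment.

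Genes that PRC2 is known to repress in skin epidermis ranged widely in level. Whether it does so in the palate, and which palate cells the Sox2 RNA came from, was not tested. Sox2, a transcription factor of Merkel cells and their precursors, averaged 43.7 ± 9.42 CPM in GFP-HI libraries, against 45.8 ± 9.33 CPM in GFP-LO libraries (SD, n = 6 each), and had a log2 fold change of −0.069 (edgeR adjusted p = 0.93). Of 8 listed, Atoh1 and Krt20 had at most 7 and 3 counts in a library and were not tested, and 0 of the other 6 were called. Krt8, a keratin of simple epithelia and Merkel cells, averaged 7.64 ± 5.65 CPM in GFP-HI libraries, against 2.89 ± 1.14 CPM in GFP-LO libraries (SD, n = 6 each; log2 0.99, interval −0.10 to 2.08, edgeR adjusted p = 0.72), with the higher value in GFP-HI in 5 of 6 mice. Isl1 had 0.38 and Cdkn2b 0.30 (adjusted p = 0.85 each). The 6 tested genes had a median of 0.30, with 5 positive, where 5501 of all 11719 genes tested were positive (median −0.02). The median biological coefficient of variation of these 6 was 42.7%, against 25.2% over all genes. Krt8, Krt18, Isl1 and Sox2 are also on the Merkel marker list, and the part of cell content in their values was not tested.

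Hox genes, the classic targets of Polycomb silencing, were almost without reads. None of 39 passed the filter, and the highest count of a single gene in a library was 11. The 39 genes summed to 5, 26.5 and 78 counts per library as lowest, median and highest in GFP-HI, and to 5, 14 and 41 in GFP-LO.

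The genes whose within-mouse pattern was most like that of Ezh2 were Cyb5d2, Sat1, Rpf1, Cacybp and Ganc (Pearson r of log2 CPM about each mouse's mean, 0.966, 0.961, 0.954, 0.954 and 0.952 over 12 libraries). For Ezh1 they were Rfxank, Nhlrc3, Araf, Pskh1 and Zfyve26 (r of 0.989, 0.985, 0.985, 0.983 and 0.983). The 12 points amount to 6 differences within mice, and the highest of 11718 coefficients are given as a description. Without B1M the coefficients were 0.951 to 0.987 for the Ezh2 genes and 0.605 to 0.923 for the Ezh1 genes.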

How the data were processed

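RNA of GFP-HI and GFP-LO palatal basal cells was measured in 12 libraries of 6 mice. The authors deposited 1 table of read counts per gene, not normalised. Tools listed in the submitters' processing notes are R 3.4.1, DESeq2, featureCounts, FastQC and bcl2fastq 2.20.0, and builds are mm10 and GRCm38. Per the file headers, counts were taken over annotated exons. For the aligner, annotation release and strand setting, nothing was given in the sources used here. No exon of a member overlapped another gene of the table. All 12 count columns matched 1 library by name.

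Counts were fitted in R 4.3.3 with edgeR 4.0.16 (minimum count 10, minimum total 15, TMM scaling, robust quasi-likelihood, two-sided), which kept 11719 genes. Calls had a Benjamini-Hochberg adjusted p under 0.05 over all genes. Mouse was a block, since each animal code in the titles occurs once per fraction and the series text calls the samples matched. As a check, deviations from group means correlated within mice at 0.225 to 0.494, in each mouse above any other mouse. Log2 CPM used a prior count of 2. SE is the log2 fold change over the root of F, and the 95% intervals use the t distribution. Alternatives were DESeq2 1.42.0, its size factors in edgeR, no count filter, no Rn45s, no replicate block and mice left out. The script was tested on simulated data.

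The members and gene lists were chosen with earlier results of these data known. The text names every member, and from each other list the 3 genes with the smallest p. Epop and Ezhip were matched by older symbols through RefSeq synonyms. Exceptions, named after their values were seen, are Cbx8, Sox2 and the marker genes.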

Additional observations from a re-analysis of the deposited data

Results flagged for a closer look

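Within each fraction and among the 6 differences within mice, the highest or lowest value of a member was compared with its nearest neighbour by Dixon's ratio. Of 30 such sets 9 held a value that stood apart. Chance gives about 1 in 20 for independent sets of normally distributed values. The sets here are not independent, since the differences are formed from the same values as the fractions. Ezh1, Mtf2, Phf19 and Cbx2 were each flagged in both, so the count of 9 cannot be set against that rate. Of the 9, 6 came from B1M. Its log2 CPM of Ezh1 was 5.68 in GFP-HI, with the next value at 4.84, and its within-mouse difference was 1.90, with the next at 0.14. For Phf19 its GFP-LO value was −1.47 (next 1.71) and its difference 4.37 (next 1.07). For Cbx2 its GFP-HI value was −0.46 (next 1.81) and its difference −3.25 (next −0.47). B3M had the lowest Mtf2 value in GFP-HI, 3.11 (next 4.37), and the lowest difference, −1.73 (next −0.37). The Suz12 value of B7F in GFP-HI, 6.52, lay above the next at 6.22. Fewest genes were detected in GFP-HI of B1M (12312) and of B3M (12810), and the part of this in the values was not tested.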

How the results depend on the processing

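No member was called in 11 of 12 alternatives. The exception was the fit without a filter on low counts, where 1 was called, Jarid2 (log2 −0.45, adjusted p = 0.043, range over alternatives 0.043 to 1.00). No other Polycomb gene was called in any of the 12. The number of all genes called, 62 with all mice paired, was 0 with no replicate block, 172 without the count filter, 137 with DESeq2 and 151 without B1M and B3M, and 32 (without B4M) to 95 (without B1M) with single mice left out, 33 without B3M. Ezh2, Jarid2, Mtf2, Phf19, Rnf2, Ring1 and Cbx2 kept their direction in all 12 alternatives. Ezh1 reversed to −0.085 without B1M (with single mice left out it ran from −0.085 to 0.35) and to −0.12 without B1M and B3M, where Eed and Suz12 also reversed, to −0.011 and 0.041. The difference in the Ezh2 to Ezh1 ratio, −0.13, reversed to 0.19 without B1M (lowest −0.27 with other mice left out) and to 0.16 without B1M and B3M. The causes of these changes were not tested. Phf19 and Cbx2 had low counts and wide intervals (−0.47 to 2.18 and −1.70 to 0.44), which limit what could be detected. Without B1M these intervals were −0.43 to 1.12 and −0.88 to 0.48.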

Other observations

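Cbx8, a chromodomain gene of canonical PRC1 that was singled out after its values were seen, varied widely between mice. Its lowest, median and highest levels were 5.03, 20.5 and 244 CPM in GFP-HI, against 4.15, 28.1 and 85.4 CPM in GFP-LO, with the highest value of either fraction in B4M. B4M also had the highest share of Rn45s in either fraction, 59.8% in GFP-HI against 51.3% in GFP-LO. Over the 12 libraries, which share mice in pairs, the rank correlation of Cbx8 with the Rn45s share was 0.881, at the 99.9th percentile of all genes tested, while those of the 10 members ran from −0.39 to 0.49. Whether the Rn45s share has a part in the Cbx8 values was not tested.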
